A study of Mus musculus with 4 samples.

Results

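The 10 T cell checkpoint and costimulatory receptor genes Pdcd1, Ctla4, Lag3, Tigit, Havcr2, Icos, Tnfrsf4, Tnfrsf9, Tnfrsf18 and Cd28 were followed in T cells of myeloma-bearing bone marrow. They were chosen by symbol, and all 10 were found among the 32285 genes of the libraries. Whole bone marrow from 5TMM mice went through droplet-based scRNA-seq, and each mouse gave 1 library. 5TMM is a multiple myeloma model in which luciferase-labelled 5TGM1 mouse myeloma cells are injected intravenously into C57BL/KawRij mice, so all mice of both groups carried myeloma. The 2 vehicle mice and the 2 PM mice were sampled 24 h after treatment. PM is purinostat mesylate, an inhibitor of class I and class IIb histone deacetylases, and was given at 10 mg/kg. The mice received the myeloma cells at 6 weeks of age and were treated 3 weeks later, and red blood cells were lysed before the libraries were made. The model is 1 transplanted cell line, and the bone marrow of the hosts still held their own T cells.

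T cells need a signal through the T cell receptor and a costimulatory signal. CD28 gives the latter after binding CD80 or CD86 on antigen-presenting cells, and CTLA-4 competes for the same ligands and restrains the response. PD-1 (Pdcd1), LAG-3, TIGIT and TIM-3 (Havcr2) are further inhibitory receptors, best known from chronically stimulated CD8 T cells in tumors. ICOS is a CD28 relative, whereas OX40 (Tnfrsf4), 4-1BB (Tnfrsf9) and GITR (Tnfrsf18) are costimulatory members of the TNF receptor superfamily. Regulatory T cells, which depend on the transcription factor Foxp3, carry CTLA-4, ICOS, OX40 and GITR at rest.

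T cells were taken as the 1581 CD3-positive cells of 39743 kept cells, that is, cells with at least 2 UMIs over Cd3d, Cd3e and Cd3g. A UMI marks 1 captured RNA molecule. The vehicle mice had 229 and 225 such cells and the PM mice had 695 and 432, or 2.67% ± 0.284 and 4.93% ± 0.375 of kept cells (SD, n = 2). When every cell was thinned to 1000 UMIs, which leaves out 199 to 377 shallower cells per library, the shares were 1.15% and 1.19% against 1.87% and 1.86%. The exact permutation test of 2 against 2 mice cannot give a two-sided p below 0.33, so no test of shares was made.

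The CD3-positive cells were split by their own UMIs. Cells with Foxp3 UMIs numbered 11 and 11 in vehicle and 33 and 20 in PM mice. Of the rest, cells with Cd8a or Cd8b1 but no Cd4 UMI (CD8 cells) numbered 63, 72, 301 and 206, and cells with Cd4 but no Cd8a or Cd8b1 UMI (CD4 cells) numbered 9, 11, 59 and 40, each in the order of vehicle mouse 1, vehicle mouse 2, PM mouse 1 and PM mouse 2. This order is kept below wherever 4 values follow each other. A further 741 cells carried neither and 4 carried both. CD8 cells were 29.8% ± 3.17 of CD3-positive cells in vehicle and 45.5% ± 3.09 in PM mice, whereas Foxp3-positive cells were 4.85% ± 0.0604 and 4.69% ± 0.0838 (SD, n = 2). The latter pair depended on the gate. It was 10.7% ± 3.42 and 6.20% ± 0.180 without mixed-lineage cells, 8.0% ± 2.21 and 6.14% ± 0.183 without cells meeting an NK gate, and 2.99% ± 0.203 and 3.60% ± 0.102 with CD3 of at least 1 UMI.

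The labels were checked against marker genes. The T cell markers Trac, Trbc1, Trbc2, Lck, Cd2, Lat, Cd5 and Thy1 were all detected in the CD3-positive cells of each mouse and summed to 2091 to 2877 CPM (UMIs of the named genes divided by all UMIs of the cells summed, scaled to 1e+06). Of the 9 regulatory T cell markers, 6 were detected in the Foxp3-positive cells of vehicle mouse 1 and 9 in those of the other mice. In CD4 cells 6, 8, 8 and 9 were detected, so detection alone does not separate these subsets. The markers summed to 5581, 1991, 2294 and 4010 CPM in Foxp3-positive cells. In CD4 cells they summed to 944, 686, 708 and 931 CPM. RNA of other lineages was present too. The 9 neutrophil markers summed to 100522, 116136, 84788 and 43752 CPM in CD3-positive cells. In Foxp3-positive cells they summed to 3552 and 4480.2 CPM in vehicle and 110962 and 49669.5 CPM in PM mice. In CD4 cells they stood at 2324, 100249, 112145 and 4203 CPM, and the plasma cell markers of vehicle mouse 2 reached 22749.8 CPM there. Without cells that also met a gate of another lineage, the Foxp3-positive sums of 23650, 108477, 157360 and 97263 UMIs became 23650, 60158, 79970 and 49570. The CD4 sums of 27535, 81627, 306593 and 186991 UMIs became 23177, 17237, 115930 and 166231. The sums of all CD3-positive cells, 1281376, 1345392, 3997767 and 2222545 UMIs, became 253279, 472316, 1561378 and 1170218. CPM values below divide by the sums that include these cells, so their denominators are raised unevenly between mice. Cells that also met an NK gate made up 49.8%, 24.0%, 21% and 26.2% of CD3-positive cells, so the CD3-positive set includes cells with NK features, but none of the Foxp3-positive cells met it. The 5 NK markers were at 0 in Foxp3-positive cells of each mouse. Their part in the results below was not tested, except where a value without such cells is given.

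The members lie in 2 groups of neighbors and otherwise in single places in the GRCm38 mouse genome. Cd28 (chr1:60716800-60773359), Ctla4 (chr1:60887000-60915832) and Icos (chr1:60977927-61000320) follow each other on the plus strand of chromosome 1. Tnfrsf4 (chr4:156013843-156016612) and Tnfrsf18 (chr4:156026164-156028895) are neighbors on the plus strand of chromosome 4, which also holds Tnfrsf9 (chr4:150914562-150946102). Pdcd1 (chr1:94038305-94052553), Lag3 (chr6:124904361-124911705), Tigit (chr16:43648867-43664146) and Havcr2 (chr11:46454935-46481255) lie apart. The annotation places Rpl18-ps1 over Ctla4, Gm37039 over Icos, Camta1 over Tnfrsf9 and Gm16008 over Tnfrsf18, and reads in these overlaps may not be assigned with certainty.

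The first question was which T cell subset carried which receptor. Ctla4 and Tnfrsf4 were highest in the Foxp3-positive cells of each mouse and near 0 in CD8 cells, and Icos and Cd28 were also lower in CD8 than in CD4 cells. Comparisons of subsets used 1 fit over the Foxp3-positive, CD8 and CD4 sums of all 4 mice, with the mouse as a block. A gene was called at an adjusted p below 0.05 with an absolute log2 fold change over 0.5.

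Ctla4, the inhibitory competitor of Cd28, measured 973, 239.7, 197 and 545 CPM in Foxp3-positive cells. In CD4 cells it measured 109, 12.3, 48.9 and 128 CPM. In CD8 cells it measured 0, 10.4, 4.34 and 10.8 CPM, where 0 of 352710 UMIs allows up to 8.51 CPM. Every Foxp3-positive sum was above every CD4 sum, and every CD4 sum was above every CD8 sum. The latter order is narrow, at 12.3 CPM in CD4 cells of vehicle mouse 2 against 10.8 CPM in CD8 cells of PM mouse 2. The CD4 sums of the vehicle mice together hold 4 Ctla4 UMIs. How many of all genes show such an order was not counted. The 23 UMIs of vehicle mouse 1 came from 11 shallow cells with 23650 UMIs in all, and the exact 95% Poisson interval of its Foxp3-positive value was 616 to 1459 CPM. In the fit, Ctla4 was 5.18-fold higher in Foxp3-positive than in CD4 cells (log2 2.37 ± 0.39, SE, edgeR adjusted p = 0.00248) and 10.0-fold lower in CD8 than in CD4 cells (log2 -3.33 ± 0.49, edgeR adjusted p = 0.000524).

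Tnfrsf4, which encodes the TNF receptor family member OX40, measured 507, 212, 159 and 298 CPM in Foxp3-positive cells. It measured 109, 36.8, 42.4 and 32.1 CPM in CD4 cells and 0, 2.59, 3.79 and 9.94 CPM in CD8 cells. The order of the 3 subsets was the same in each mouse, as for Ctla4. The vehicle mice together had 6 Tnfrsf4 UMIs in CD4 cells and 1 in CD8 cells. Tnfrsf4 was 5.28-fold higher in Foxp3-positive than in CD4 cells (log2 2.40 ± 0.44, edgeR adjusted p = 0.00532) and 8.02-fold lower in CD8 than in CD4 cells (log2 -3.00 ± 0.56, edgeR adjusted p = 0.00378).

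Icos measured 761, 175, 267 and 380.4 CPM in Foxp3-positive cells, 109, 123, 111 and 160.4 CPM in CD4 cells and 36.9, 46.6, 30.9 and 31.6 CPM in CD8 cells. The order of the subsets was the same in each mouse. Icos was 3.70-fold lower in CD8 than in CD4 cells (log2 -1.89 ± 0.34, edgeR adjusted p = 0.00239). Its difference between Foxp3-positive and CD4 cells, log2 1.21 ± 0.33, did not pass (edgeR adjusted p = 0.141).

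Cd28 had another order. It measured 617, 368, 297 and 390.4 CPM in CD4 cells, 338, 249, 222 and 339 CPM in Foxp3-positive cells and 139, 238, 157 and 179 CPM in CD8 cells. CD4 cells were highest and CD8 cells lowest in each mouse. Cd28 was 2.19-fold lower in CD8 than in CD4 cells (log2 -1.13 ± 0.24, edgeR adjusted p = 0.00934), whereas the difference between Foxp3-positive and CD4 cells was log2 -0.60 ± 0.26 (edgeR adjusted p = 0.648).

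Tnfrsf18, which encodes GITR, measured 507, 138, 286 and 257 CPM in Foxp3-positive cells and 0, 110.3, 62.0 and 74.9 CPM in CD4 cells. The 0 of vehicle mouse 1 rests on 27535 UMIs, and the 4 CD8 sums lay between 34.7 and 54.4 CPM. Foxp3-positive cells were highest in each mouse, but neither difference passed: log2 1.75 ± 0.43 between Foxp3-positive and CD4 cells (edgeR adjusted p = 0.0799), and -0.79 ± 0.43 between CD8 and CD4 cells (edgeR adjusted p = 0.662).

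**Figure D1:**
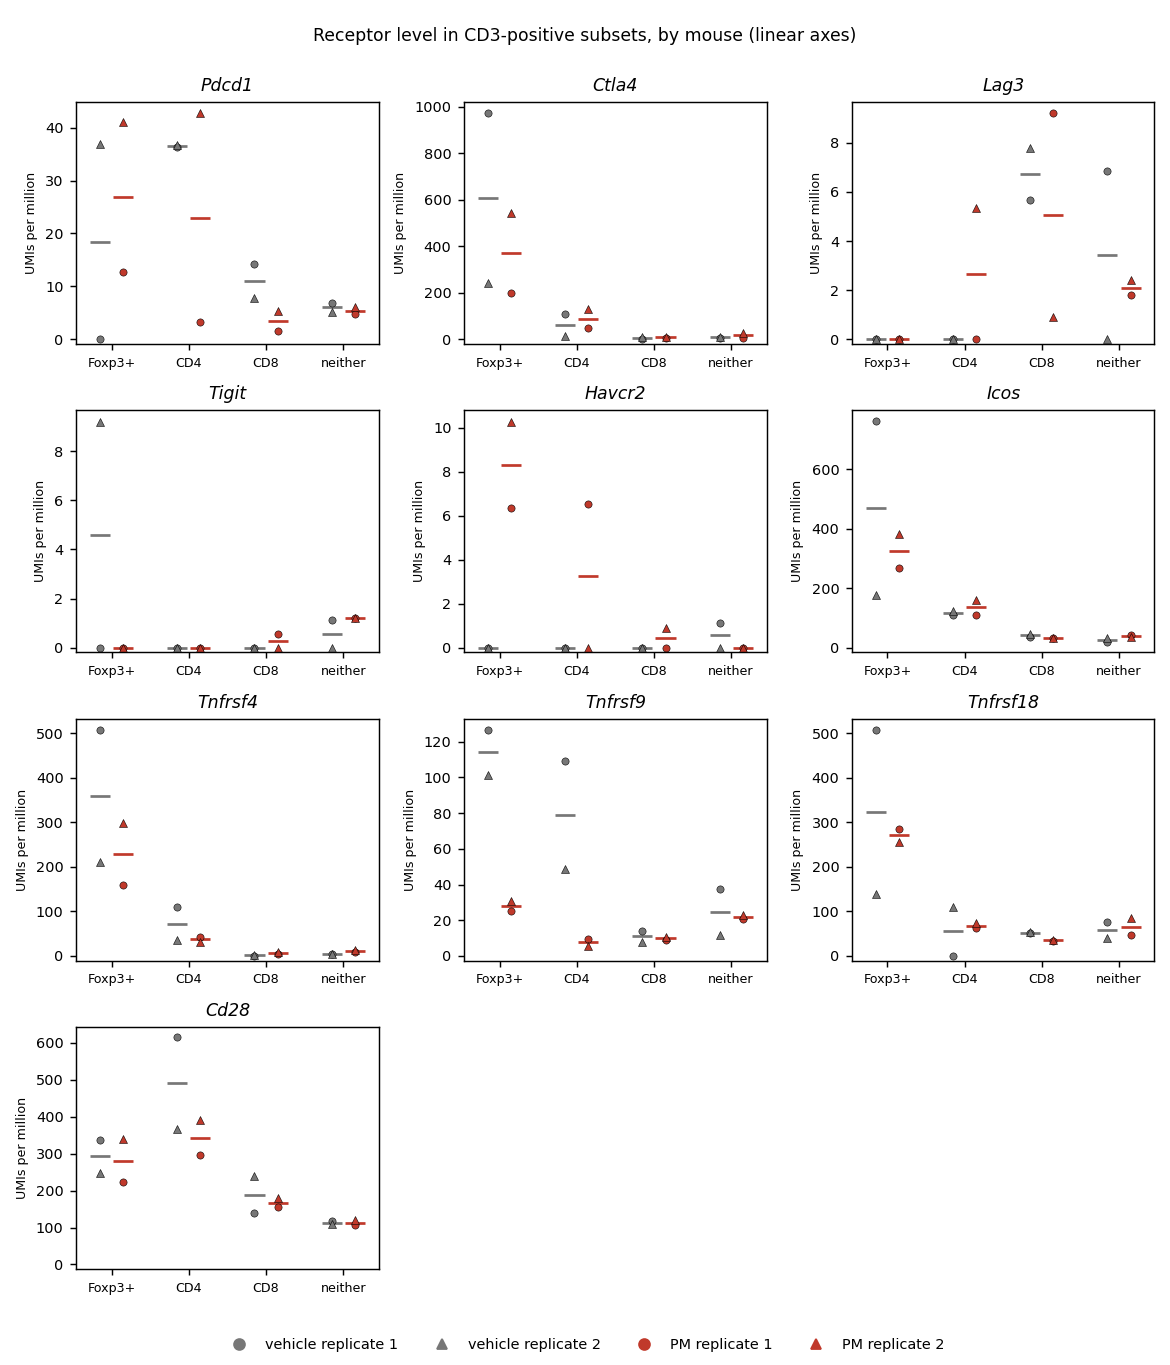
Level of each receptor gene (UMIs scaled as CPM, linear axes that differ between genes) in Foxp3-positive, CD4, CD8 and remaining CD3-positive cells, with 1 point per mouse (vehicle gray, PM red) and a bar at each group's mean. Ctla4 and Tnfrsf4 are highest in Foxp3-positive and lowest in CD8 cells, and the Lag3, Tigit and Havcr2 axes end near 10 CPM.

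Of the 5 members that passed the filter on low counts between subsets, 2 were therefore higher in Foxp3-positive than in CD4 cells and 4 were lower in CD8 than in CD4 cells. Over all 3666 genes of the fit, 0.136% were higher and 0.436% lower in Foxp3-positive cells, and 0.982% were lower and 1.88% higher in CD8 cells. The filter asked for counts in as many sums as 1 subset holds, so a gene high in a single subset could pass through it. Ctla4 and Tnfrsf4 had few UMIs in most sums outside Foxp3-positive cells and passed only with the latter. The counts of members called are therefore not a result about the members as a set. All 5 members had an unadjusted p below 0.05 between Foxp3-positive and CD4 cells, as did 244 of all 3666 genes. The counts rest on the PM mice: without PM mouse 1 or without PM mouse 2, 0 members passed between Foxp3-positive and CD4 cells and 1 passed between CD8 and CD4 cells, while the log2 difference of Ctla4 was 2.56 without either mouse. Between Foxp3-positive and CD4 cells 2 members passed without vehicle mouse 1 and 4 without vehicle mouse 2, and between CD8 and CD4 cells 4 passed without either vehicle mouse. With at least 2 Foxp3 UMIs required per cell, Ctla4 no longer passed (log2 1.56, edgeR adjusted p = 0.0962). With mixed-lineage cells left out, 2 members passed between Foxp3-positive and CD4 cells and 4 between CD8 and CD4 cells.

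**Figure D2:**
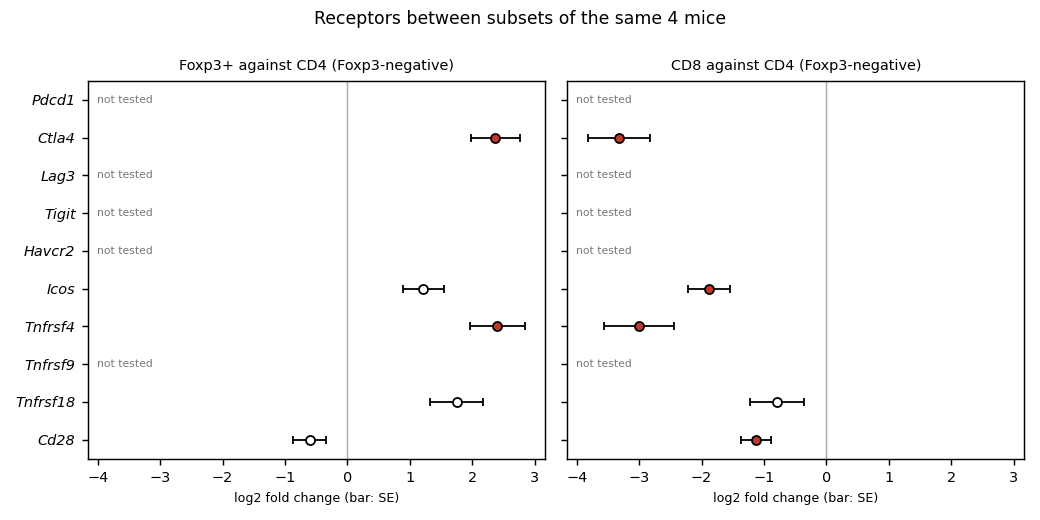
Fitted log2 fold change of the 5 members tested between T cell subsets, with bars of 1 SE and red points for called genes, for Foxp3-positive against CD4 cells and for CD8 against CD4 cells. Ctla4 and Tnfrsf4 lie at 2.37 and 2.40 in the former and at -3.33 and -3.00 in the latter.

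The RefSeq promoters of the 2 genes that moved together across the subsets are shown, as the 250 bases before the start of Ctla4 (chr1:60908775-60909024, plus strand, GRCm38.p6) and of Tnfrsf4 (chr4:156013445-156013694, plus strand, GRCm38.p6). Capitals mark matches, on either strand, to the NFAT core GGAAA and the forkhead core TGTTT. These RefSeq starts differ from the starts of the annotated gene spans: that of Ctla4 lies inside the span, and that of Tnfrsf4 lies before it. The AP-1 motif TGANTCA was searched as well and had no match.
Ctla4: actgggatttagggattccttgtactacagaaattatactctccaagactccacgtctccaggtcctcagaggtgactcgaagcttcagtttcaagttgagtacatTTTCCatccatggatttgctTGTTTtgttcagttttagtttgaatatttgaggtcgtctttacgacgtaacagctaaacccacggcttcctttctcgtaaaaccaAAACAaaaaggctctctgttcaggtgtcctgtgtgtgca
Tnfrsf4: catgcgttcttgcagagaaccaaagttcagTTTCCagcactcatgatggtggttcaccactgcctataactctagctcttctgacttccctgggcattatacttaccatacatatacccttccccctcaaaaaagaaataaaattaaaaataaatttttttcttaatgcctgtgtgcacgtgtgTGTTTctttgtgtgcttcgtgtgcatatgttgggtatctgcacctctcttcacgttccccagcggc
Each promoter held 1 NFAT core, and the forkhead core occurred at 2 places before Ctla4 and at 1 place before Tnfrsf4. The GC content was 42.4% and 42.8%. Such short motifs are common: 55.6% of the 32851 RefSeq promoters of this length held an NFAT core, 46.4% a forkhead core and 6.75% the AP-1 motif. A promoter entry was given for 7 of the 10 members.

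Pdcd1, which encodes PD-1, was sparse, with 63 UMIs in all CD3-positive cells. It measured 0, 36.9, 12.7 and 41.1 CPM in Foxp3-positive cells, 36.3, 36.8, 3.26 and 42.8 CPM in CD4 cells and 14.2, 7.77, 1.63 and 5.42 CPM in CD8 cells. These sums hold 10, 13 and 17 UMIs over the 4 mice, and Foxp3-positive and CD4 values overlapped widely.

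The other inhibitory receptors were close to the limit of detection. Lag3 had 35 UMIs in CD3-positive cells, 23 of them in CD8 cells and 0 in Foxp3-positive cells, where a count of 0 allows up to 127, 27.7, 19.1 and 30.8 CPM. Tigit had 6 UMIs and Havcr2 had 6 UMIs in CD3-positive cells of all 4 mice. These 3 genes did not pass the filter on low counts in the comparisons of subsets, and without that filter none of them was called, at edgeR adjusted p of 0.951 or above.

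Tnfrsf9, which encodes 4-1BB, measured 127, 101, 25.4 and 30.8 CPM in Foxp3-positive cells, 109, 49.0, 9.78 and 5.35 CPM in CD4 cells and 14.2, 7.77, 9.21 and 10.8 CPM in CD8 cells. In Foxp3-positive and in CD4 cells both vehicle mice lay above both PM mice, whereas the CD8 values overlapped. The Foxp3-positive sums hold 21 UMIs and the CD4 sums 11.

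Most Foxp3-positive cells carried several receptors. Cells with UMIs of 2 or more members made up 90.9%, 81.8%, 87.9% and 80.0% of Foxp3-positive cells, 44.4%, 72.7%, 52.5% and 67.5% of CD4 cells and 19.0%, 29.2%, 23.6% and 21.4% of CD8 cells. Foxp3-positive cells were above CD4 cells and CD4 cells above CD8 cells in each mouse. The median depth was 2004 to 3568 UMIs in Foxp3-positive cells, 2946 to 3388 UMIs in CD4 cells and 3882 to 4689.5 UMIs in CD8 cells. The part of depth in this order was not tested.

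Genes with the most similar pattern were looked for over the same 12 sums, as Pearson's r of log2(CPM + 1) among 6790 genes. For Ctla4 these were Tnfrsf4 (r = 0.954), Twsg1 (0.945) and F730043M19Rik (0.916), and for Tnfrsf4 they were Ctla4 and Twsg1 (0.934). Icos was most like Il2ra (0.940), which encodes the IL-2 receptor alpha chain, then Inpp5f (0.938) and Izumo1r (0.935), which encodes folate receptor 4. For Cd28 they were Leprot (0.927), Apc (0.903) and Podnl1 (0.878), and for Tnfrsf18 they were Stimate (0.963), Osbpl2 (0.961) and Itgav (0.953). For the sparse genes they were Plaa (0.897), Rnaset2a (0.871) and Vps11 (0.860) for Tnfrsf9 and Cox17 (0.928), Nfkb1 (0.906) and Tm9sf3 (0.864) for Pdcd1. The 12 points come from 4 libraries and share mouse and depth, so these values describe likeness only.

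The main question of the study's design was what PM did within 24 h. No member was called between PM and vehicle mice in any T cell population. In all CD3-positive cells 7 members had enough counts for the test. An unadjusted p below 0.05 was found for 1 of these 7 and for 1242 of 9964 genes. Of the 7 members 0 were called, where 0.0803% of the 9964 genes were. In Foxp3-positive cells it was 0 of 6 (0.147% of 2045 genes), in CD8 cells 0 of 3 (0.037% of 8105), in CD4 cells 0 of 4 (0% of 2530) and in cells with neither subset gene 0 of 4 (0.191% of 8385), with 0 at an unadjusted p below 0.05 in each. DESeq2 also called 0 members in these fits. In all CD3-positive cells the median log2 change of the members was 0.01. Without mixed-lineage cells it was -0.50, beside 0.00 for all genes tested. There 2 of 7 members and 938 of 8218 genes had an unadjusted p below 0.05, and 0 members were called. The members' median was 0.07 and -0.16 with CD3 of at least 1 and 3 UMIs, and -0.19 without NK-gate cells. The edgeR calls in all CD3-positive cells were Ms4a1 and Ighd, B cell genes, upward, and Fpr2, Mxd1, St3gal5, Lrg1, Ltf and Ifitm6, most of them known from neutrophils, downward. In Foxp3-positive cells the called genes were the neutrophil genes Ngp, S100a8 and Camp, upward. In sums of this kind, fewer cells that carry a receptor and less RNA per cell cannot be told apart.

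Tnfrsf9 had the lowest p of the members. It measured 34.3 and 20.1 CPM in vehicle and 14.8 and 15.7 CPM in PM mice over all CD3-positive cells. Both PM mice lay below both vehicle mice. The fitted change was log2 -0.89 ± 0.29 with a 95% interval of -1.54 to -0.25, and it did not pass (edgeR adjusted p = 0.253). Cells with a Tnfrsf9 UMI made up 11.8% (exact 95% interval 7.92% to 16.7%) and 8.0% (4.81% to 12.3%) in vehicle and 6.04% (4.39% to 8.08%) and 6.48% (4.35% to 9.23%) in PM mice. After thinning to 1000 UMIs they were 4.42%, 2.23%, 1.59% and 2.09%. In the B gate 0 cells had a Tnfrsf9 UMI, and in the neutrophil gate 0.0180% did in PM mouse 2 and 0 elsewhere. Of the 165 Tnfrsf9 UMIs in CD3-positive cells, 91 lay in cells that also met the NK gate, at means of 40.7 CPM in vehicle and 29.3 CPM in PM mice. The other CD3-positive cells stood at 18.6 and 10.2 CPM, from 28 and 46 UMIs. Vehicle mouse 1, which had the largest share of cells meeting the NK gate, was highest. Without it the change was log2 -0.51 (edgeR adjusted p = 0.707), and with the NK-gate cells left out of all mice it was -0.96 (edgeR adjusted p = 0.263).

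**Figure D3:**
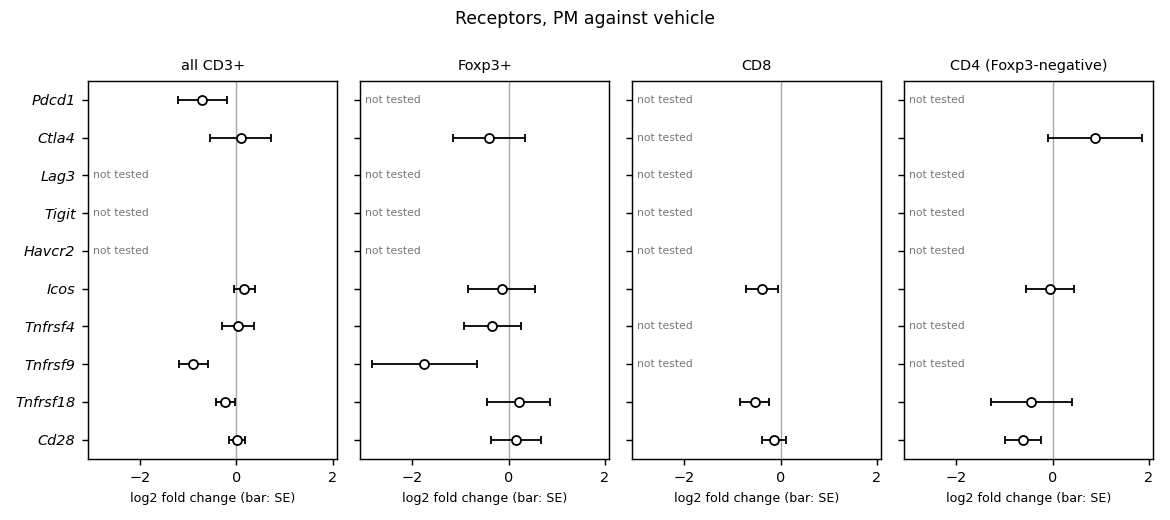
Fitted log2 fold change, PM against vehicle, with bars of 1 SE, for each member that could be tested in all CD3-positive, Foxp3-positive, CD8 and CD4 cells, on 1 shared axis. Open points mark members that were not called, which holds for all shown, and Tnfrsf9 in all CD3-positive cells lies at -0.89 ± 0.29.

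Within the subsets, the Tnfrsf9 values of Foxp3-positive cells given above fitted to log2 -1.75 with an interval of -4.23 to 0.74 (edgeR adjusted p = 0.999). In the remaining cells with neither subset gene Tnfrsf9 measured 37.6, 11.7, 21 and 22.9 CPM, and the groups overlapped (log2 -0.28, interval -1.16 to 0.61).

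Pdcd1 measured 9.36, 10.4, 3.50 and 10.3 CPM in all CD3-positive cells. PM mouse 1 alone was low, and PM mouse 2 lay between the vehicle mice (log2 -0.71, interval -1.84 to 0.42, edgeR adjusted p = 0.626). In CD8 cells both PM mice were below both vehicle mice, but the 4 values rest on 5, 3, 3 and 6 UMIs.

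Ctla4 measured 23.4, 32.0, 16.0 and 49.9 CPM in all CD3-positive cells, with the 2 PM mice as the lowest and the highest (log2 0.09, interval -1.67 to 1.84, edgeR adjusted p = 0.979). In Foxp3-positive cells the change was -0.41 with an interval of -2.08 to 1.27, and in CD4 cells it was 0.87 with an interval of -1.31 to 3.06. Each of these intervals includes log2 changes of -1 and 1, and in all CD3-positive cells the 2 PM mice differed from each other by more than the groups did.

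Cd28 was the most narrowly bounded member. It measured 138, 172, 149 and 181 CPM in all CD3-positive cells, with overlapping groups, and its change of log2 0.01 had an interval of -0.37 to 0.38. In CD8 cells the change was -0.14 (interval -0.69 to 0.40), in Foxp3-positive cells 0.15 (-1.01 to 1.32) and in CD4 cells -0.60 (-1.44 to 0.23). Cells with a Cd28 UMI made up 37.6%, 48.9%, 43.5% and 46.3% of CD3-positive cells, against at most 0.499% in the B gate and 0.165% in the neutrophil gate.

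Icos measured 39.0, 54.3, 51.5 and 59.4 CPM in all CD3-positive cells, and the groups overlapped (log2 0.17, interval -0.29 to 0.62). In CD8 cells its 2 PM values were below both vehicle values by a small margin (log2 -0.38, interval -1.11 to 0.34), whereas in the cells with neither subset gene they were above them, at 43.8 and 36.1 against 18.2 and 32.6 CPM (log2 0.61, interval -0.12 to 1.35, edgeR adjusted p = 0.649).

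Tnfrsf4 measured 14.8, 22.3, 15.5 and 26.1 CPM in all CD3-positive cells, again with overlap (log2 0.04, interval -0.69 to 0.77). In CD8 cells both PM mice, at 3.79 and 9.94 CPM, were above both vehicle mice, at 0 and 2.59 CPM, but the vehicle sums hold 0 and 1 UMI and the gene did not pass the filter on low counts there. Without the filter its log2 change was 2.20 ± 1.40 (edgeR adjusted p = 0.919).

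Tnfrsf18 measured 75.7, 56.5, 51.8 and 67.5 CPM in all CD3-positive cells, with overlapping groups (log2 -0.23, interval -0.65 to 0.19). In CD8 cells it measured 51.0 and 54.4 CPM in vehicle and 34.7 and 36.1 CPM in PM mice. The groups did not overlap there, and the change of log2 -0.54 (interval -1.19 to 0.12) did not pass (edgeR adjusted p = 0.785). Tnfrsf18 was also the member with the most signal in other cells: 28.4%, 24.0%, 22.3% and 23.6% of CD3-positive cells had a UMI, against 7.18%, 5.72%, 5.91% and 5.97% in the neutrophil gate, where the median depth was 4368.5 to 5550 UMIs compared with 3747 to 4297 UMIs in CD3-positive cells.

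Whether the PM effect differed between subsets was tested as an interaction in the joint fit. Of the 5 members tested, 0 passed for Foxp3-positive minus CD4 cells and 0 for CD8 minus CD4 cells, as did 0% of the 3666 genes in both, and 0 members had an unadjusted p below 0.05 in either. The largest difference was that of Tnfrsf4 between CD8 and CD4 cells, log2 2.90 with an interval of -0.11 to 5.90. It rests on vehicle CD8 sums of 0 and 1 UMI and ran from 1.58 to 5.81 with 1 mouse left out. Without vehicle mouse 2, 3 members had an unadjusted p below 0.05 for CD8 minus CD4 cells, and Tnfrsf4 was below it without PM mouse 1. For Foxp3-positive minus CD4 cells 1 member, Tnfrsf18, was below it without vehicle mouse 1 and without vehicle mouse 2, in opposite directions (log2 2.22 and -8.46). No member passed the adjusted test under any alternative.

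Other genes around these receptors were read from fixed lists. Of 29 further receptors, 23 could be tested in all CD3-positive cells and 0 passed in either direction. An unadjusted p below 0.05 was found for 10 of them and for 1242 of 9964 genes. DESeq2 also called 0 of the receptors. Il7r, the IL-7 receptor alpha chain, stood at log2 0.92 (edgeR adjusted p = 0.242), Btla at 0.80, Cd226 at -0.49 and Cd160 at -0.84. In CD8 cells Cd160 measured 136 and 117 CPM in vehicle and 46.6 and 53.3 CPM in PM mice. These groups did not overlap (log2 -1.30 ± 0.24), and the change did not pass (edgeR adjusted p = 0.104). Cells meeting the NK gate made up 49.2%, 23.6%, 13.3% and 20.4% of CD8 cells, and without them the change was log2 -1.35 (edgeR adjusted p = 0.854). The change passed without PM mouse 2 (edgeR adjusted p = 0.0128) and without the filter on low counts (0.000983). It did not under the other alternatives, where the edgeR adjusted p ran from 0.054 to 0.854 and that of DESeq2 was 0.712. The median of the list was -0.10 in all CD3-positive cells beside 0.00 for all genes tested, and -0.26 in CD8 cells beside 0.02.

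Between subsets, the activating receptor Cd226, which shares ligands with Tigit, was lower in Foxp3-positive than in CD4 cells (log2 -1.58 ± 0.35, edgeR adjusted p = 0.0409), as 1 of 17 receptors tested. The call was lost without any of the 4 mice (edgeR adjusted p from 0.121 to 0.322). In CD8 cells 1 was higher than in CD4 cells, the NK receptor gene Klrc1 (log2 2.66), and 3 were lower, Slamf1 (-3.23), Il2ra (-2.61) and Cd5 (-1.03). Over all genes 0.573% were called between Foxp3-positive and CD4 cells and 2.86% between CD8 and CD4 cells. Slamf1 passed with any 1 mouse left out, Il2ra was lost without PM mouse 2, Klrc1 without either PM mouse, and Cd5 without either PM mouse or vehicle mouse 1.

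Among 29 regulators of receptor expression, 28 could be tested in all CD3-positive cells and 0 passed, and DESeq2 called 0. An unadjusted p below 0.05 was found for 6 regulators and for 1242 of 9964 genes. Prdm1, which encodes the transcriptional repressor Blimp-1, measured 29.7 and 22.3 CPM in vehicle and 12.3 and 14.8 CPM in PM mice over all CD3-positive cells. Both PM mice were below both vehicle mice (log2 -1.02 ± 0.28, edgeR adjusted p = 0.172). In CD4 cells Prdm1 measured 109 and 147 against 22.8 and 21.4 CPM (log2 -2.76 ± 0.80, edgeR adjusted p = 0.930). Prdm1 is itself a plasma cell regulator, and plasma cell markers in these CD4 sums stood at 799, 22749.8, 16.3 and 21.4 CPM. Their part in the Prdm1 values was not tested. The fit without vehicle mouse 1 cannot settle the change, since vehicle mouse 2, with the most plasma cell markers, is then the only vehicle sum.

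Between subsets, 4 of 17 regulators were called between Foxp3-positive and CD4 cells and 6 of 17 between CD8 and CD4 cells, where 0.573% and 2.86% of all genes were. The list's medians were 0.01 and -0.07 on the log2 scale, beside -0.01 and 0.01 for all genes tested. In Foxp3-positive cells Ikzf2, the regulatory T cell factor Helios, was higher than in CD4 cells (log2 2.26 ± 0.25, edgeR adjusted p = 5.64e-05), and Id2 (-1.72) and Tcf7 (-2.13) were lower. Eomes, also called lower, had 0 UMIs in Foxp3-positive cells and 26.1 to 37.4 CPM in CD4 cells. Ikzf2 and Id2 passed with any 1 mouse left out, Tcf7 did not without PM mouse 2, and Eomes did not without any of the 4 mice. In CD8 cells Eomes (2.57) and Runx3 (1.12), which act in cytotoxic cells, were higher, and Maf (-4.60), Ikzf4 (-3.88), Gata3 (-1.40) and Prdm1 (-2.31) were lower. Eomes and Maf passed with any 1 mouse left out. Runx3 was lost without either PM mouse, Gata3 without either PM mouse or vehicle mouse 1, Ikzf4 without PM mouse 2, and Prdm1 without any of the 4 mice. Of the 6 regulatory T cell markers tested, Ikzf2 alone passed between Foxp3-positive and CD4 cells, and Il2ra stood at log2 1.79 (edgeR adjusted p = 0.0869).

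The signaling adaptors downstream of the receptors gave 0 calls in either direction, of 23 tested in all CD3-positive cells and of 18 tested between subsets, by edgeR as well as by DESeq2. At an unadjusted p below 0.05 there were 4 in all CD3-positive cells, beside 1242 of 9964 genes. Among the adaptors the lowest p there was that of Cblb, a ubiquitin ligase that restrains T cells without costimulation (log2 -0.64 ± 0.19, edgeR adjusted p = 0.205).

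Outside CD3-positive cells, the members differed in how far they belonged to T cells. CD3-positive cells held 74.6%, 57.9%, 71.8% and 75.0% of all Icos UMIs of a library. For Ctla4 the share was 24.2% and 36.8% in vehicle and 57.1% and 63.4% in PM mice, and for Lag3 it was at most 10.8%. The other cells were sorted into gates by UMIs of a few marker genes, without CD3 UMIs. Cd28 was higher in both PM mice than in both vehicle mice in the gates of plasmacytoid dendritic cells, B cells, NK cells, neutrophils, and monocytes and macrophages. In the plasma and basophil gates it was not. The basophil gate held 0 Cd28 UMIs in vehicle and 1 in PM mice, the B gate held 2 and 16, and the neutrophil gate held 6 and 22. In the B and neutrophil gates Cd28 did not pass the filter on low counts. The change in the NK gate did not pass the test (log2 0.78, edgeR adjusted p = 0.956). How many of all genes show such an order in these gates was not counted. In the gate of plasmacytoid dendritic cells Tnfrsf18 averaged 11.1 CPM in vehicle and 24.5 CPM in PM mice (log2 1.10, edgeR adjusted p = 0.578).

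Cd28 was higher in PM mice in the gate of plasmacytoid dendritic cells (pDC, at least 3 Siglech UMIs), which hold 81, 108, 127 and 92 cells. It measured 36.5 and 23.0 CPM in vehicle and 89.4 and 71.4 CPM in PM mice. Both PM mice were above both vehicle mice, by 2.78-fold in the fit (log2 1.47 ± 0.32, interval 0.83 to 2.12, edgeR adjusted p = 0.0154), where 0.664% of 7532 genes were called. Cells with a Cd28 UMI made up 13.6% (exact 95% interval 6.98% to 23.0%) and 13% (7.27% to 20.8%) of the gate in vehicle and 32.3% (24.3% to 41.2%) and 30.4% (21.3% to 40.9%) in PM mice, and after thinning 3.70%, 0.943%, 11.9% and 10.1%. The T cell gene Trac had 0 UMIs in this gate in each mouse. Thy1, another T cell marker, measured 6.84, 9.47, 110 and 118 CPM there, and the 8 T cell markers together 16.0, 29.8, 149 and 159.7 CPM, with 4 to 6 of them detected. The 5 pDC markers were all detected and summed to 9392 to 10341 CPM. The call was lost with DESeq2 (adjusted p = 0.819), without vehicle mouse 2 (log2 1.11, edgeR adjusted p = 0.330) and without PM mouse 1 (log2 1.29, edgeR adjusted p = 0.0846).

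Lag3, a known pDC gene, had its highest level in the same gate, at 178, 98.7, 60.6 and 101 CPM. The groups overlapped, since PM mouse 2 lay above vehicle mouse 2 (log2 -0.78 ± 0.30, edgeR adjusted p = 0.402), although it was called lower without vehicle mouse 2 or without PM mouse 2. Lag3 was also present in the basophil gate, at 49.1, 23.9, 32.9 and 31.6 CPM. Outside these gates and CD3-positive cells it did not exceed 8.21 CPM in any gate.

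**Figure D4:**
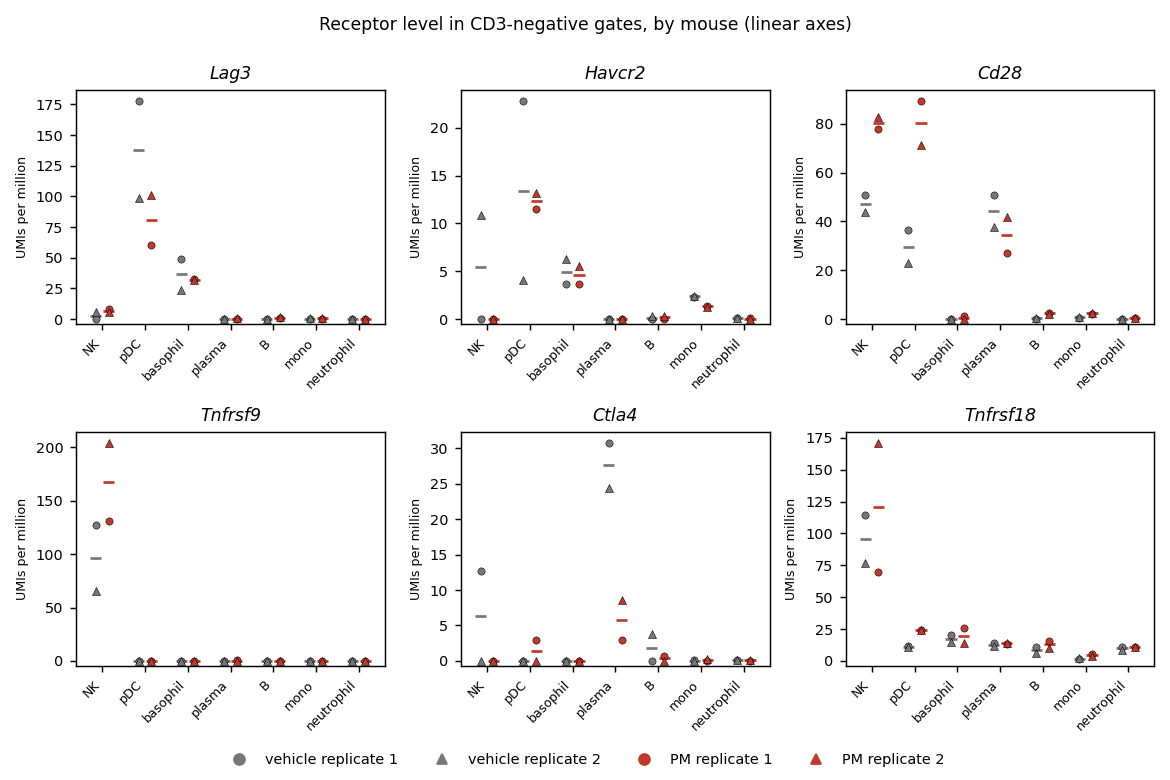
Levels (CPM, linear axes) of Lag3, Havcr2, Cd28, Tnfrsf9, Ctla4 and Tnfrsf18 in 7 gates of CD3-negative cells, with 1 point per mouse (vehicle gray, PM red) and a bar at each group's mean. Cd28 in the pDC gate is higher in both PM mice, at 89.4 and 71.4 CPM, than in the vehicle mice, at 36.5 and 23.0 CPM.

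Outside CD3-positive cells, the plasma gate (at least 2 UMIs over Sdc1 and Tnfrsf17), which can hold myeloma cells and host plasma cells, was the gate with the most Ctla4 UMIs, 100 in the vehicle and 29 in the PM mice. Cells with a lower CD3 count held 11 and 39. In the plasma gate Ctla4 measured 30.7 and 24.4 CPM in vehicle and 3.0 and 8.62 CPM in PM mice, from 47, 53, 11 and 18 UMIs in 8, 18, 9 and 13 cells. Both PM mice were below both vehicle mice. The change was log2 -2.57 ± 0.45 and did not pass (edgeR adjusted p = 0.207, where 0% of 9486 genes were called), whereas DESeq2 called it (adjusted p = 0.0122), as did edgeR without PM mouse 2 (log2 -3.45, adjusted p = 0.00199). Trac had 0 UMIs in this gate. When the gate was split by the heavy chain with the most UMIs, a split chosen after the data were seen, cells led by Igha held 45, 42, 7 and 12 of these UMIs, at 116, 56.0, 12.5 and 33.0 CPM. Cells led by Ighg2b held 0, 3, 3 and 1. Cd28, which long-lived plasma cells are known to carry, measured 139, 93.4, 128 and 143 CPM in Igha-led cells and 24.3, 7.26, 8.77 and 6.61 CPM in Ighg2b-led cells. Igha-led cells were above Ighg2b-led cells in each mouse for both genes. In the remaining cells of the gate, led by other heavy chains, Ctla4 measured 6.31, 44.5, 4.04 and 9.72 CPM from 2, 8, 1 and 5 UMIs. Cd28 measured 12.6, 16.7, 8.07 and 52.5 CPM there.

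In the monocyte and macrophage gate 4 members could be tested and 0 were called, while 1.74% of 12372 genes were. An unadjusted p below 0.05 was found for 3 of these members and for 2081 of the 12372 genes. Tnfrsf18 measured 1.39, 2.17, 5.47 and 4.26 CPM (log2 1.44 ± 0.34, edgeR adjusted p = 0.0775) and Cd28 measured 0.544, 0.910, 2.18 and 2.45 CPM (log2 1.65 ± 0.41, edgeR adjusted p = 0.0897). Havcr2 measured 2.28, 2.45, 1.37 and 1.26 CPM (log2 -0.87 ± 0.34, edgeR adjusted p = 0.247). The groups did not overlap for any of the 3, which were picked by their p, and the share of all genes without overlap was not counted. DESeq2 called 0 of the 3. With 1 mouse left out their log2 changes ran from 1.14 to 1.79, from 1.28 to 2.03 and from -0.99 to -0.78. Whether Tnfrsf18 or Cd28 was called then depended on which mouse was left out. In the same gate the T cell gene Trac had 0, 0, 2 and 6 UMIs, and its part in these values was not tested.

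Tnfrsf9 in the NK gate measured 127, 65.6, 131 and 204 CPM, over 22, 39, 80 and 50 cells. Both PM mice were above both vehicle mice, vehicle mouse 1 only narrowly (log2 0.92, interval 0.05 to 1.79, edgeR adjusted p = 0.956, where 0% of 3823 genes were called), in contrast to the lower PM values in CD3-positive cells. The 2 changes were not tested against each other. In the neutrophil gate 2 members could be tested, Tnfrsf4 and Tnfrsf18, and 0 were called by edgeR or DESeq2 or had an unadjusted p below 0.05, where 4.54% of 12501 genes were called.

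Ligands of the receptors were read in the cells that can present them. In the B gate 13 of 19 ligands could be tested and 0 were called, while 1.98% of 10768 genes were called. An unadjusted p below 0.05 was found for 5 ligands and for 1556 of the 10768 genes. Lgals9, which encodes the TIM-3 ligand galectin-9, stood at log2 -0.59 (edgeR adjusted p = 0.0775), the PD-1 ligand genes Pdcd1lg2 and Cd274 at 1.59 and 0.72, and Icosl at 0.67. In the monocyte and macrophage gate 0 of 14 ligands were called, where 1.74% of 12372 genes were. An unadjusted p below 0.05 was found for 6 ligands and for 2081 of the 12372 genes. The ligands with the lowest p were Lgals9 at 0.40, the 4-1BB ligand Tnfsf9 at -0.84, Ceacam1 at -0.48 and Nectin2 at 1.14. DESeq2 called 0 ligands in either gate. In the pDC gate 1 of 9 was called, where 0.664% of 7532 genes were. It was the MHC class II gene H2-Eb1, whose product is a ligand of LAG-3. It measured 374 and 342 CPM in vehicle and 643 and 594 CPM in PM mice, with both PM mice above both vehicle mice (log2 0.76 ± 0.17, edgeR adjusted p = 0.0218). The call was lost with DESeq2 (adjusted p = 0.164) and without vehicle mouse 1 or vehicle mouse 2 (edgeR adjusted p = 0.125 and 0.343).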

How the data were processed

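The authors made 1 droplet-based library (10x 3' chemistry) per mouse, and deposited raw counts, that is, UMIs per gene and cell barcode, as Cell Ranger 6.0.1 wrote them per the file headers. The study's methods name GRCm38 as the reference, whereas the submitters' processing notes name GRCm39. Of the 32285 gene IDs 99.6% were found in the GENCODE M21 annotation (GRCm38), which gave the positions of genes. The members and gene lists were chosen with earlier results of these data known.

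The study's filter of 300 genes or more and no more than 20% mitochondrial counts left 39743 cells, and the libraries held 69828595 to 109447030 UMIs. No doublet caller was run, and cells that also met a gate of another lineage were left out in 1 alternative. Library pairs shared 18 to 41 barcodes. Replicates are mice as labelled.

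Counts were summed per mouse and cell class. Where every mouse had at least 10 cells, edgeR 4.0.16 gave the test (robust quasi-likelihood fit after filterByExpr and TMM, Benjamini-Hochberg adjustment over all genes tested), and CD4 cells were tested although vehicle mouse 1 had 9 cells, as an analysis added after the data were seen. Tests in the NK, plasma, pDC, basophil and neutrophil gates, in cells with neither subset gene, and without NK-gate cells were added in the same way. DESeq2 1.42.0, no TMM factor, no filter, a replicate block, other gates and each mouse left out were alternatives. The minimum of 10 cells was not applied to alternatives. With at least 2 Foxp3 UMIs the vehicle mice had 6 and 8 Foxp3-positive cells. With CD3 of at least 3 UMIs vehicle mouse 1 had 8. Without mixed-lineage cells the vehicle mice had 8 and 6 CD4 cells. Intervals on UMIs and cells are exact 95% intervals and cover counting error only. For a count of 0 a fixed limit of 3 counts was used instead, which is below the exact 95% limit. The SE of edgeR fits were derived from the log2 fold change and the F statistic of the test. The intervals on fold changes were built from these SE.

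Data were simulated from the real sums, with a common dispersion for every gene of a fit. With no change, edgeR called 0 genes. Then 200 genes were changed by log2 1 or 2. The fits tested 9820 genes in all CD3-positive, 7789 in CD8 and 1724 in Foxp3-positive cells. Of genes changed by log2 1 edgeR recovered 48%, 26.3% and 1.23% in this order. Of genes changed by log2 2 it recovered 92.9%, 86.6% and 20.5%. These shares are taken over the changed genes that were tested. In all CD3-positive cells the SE of the members tested ran from 0.17 for Cd28 to 0.64 for Ctla4. Whether the shares or the 0 calls hold for single members, for genes of unequal dispersion, or for sums with uneven RNA of other lineages, was not tested.

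All 10 members were followed in each subset and mouse. Of the other lists, each gene called and up to 4 genes by smallest p were named, and for likeness the 3 genes with the highest r for members with at least 50 UMIs and candidates with a mean of at least 20 CPM. For Tnfrsf4, 1 of these 3 genes is not reported here. The edgeR calls other than list genes, Thy1 and Trac in the gates, were named after their values were seen.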

Additional observations from a re-analysis of the deposited data

Results flagged for a closer look

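Cd28 in the pDC gate drew attention because it differed between PM and vehicle mice outside the CD3-positive cells the comparisons are about. Its log2 fold change was 1.47 (edgeR adjusted p = 0.0154), and it was higher in both PM mice than in both vehicle mice. Cd28 had this order in other CD3-negative gates too. Vehicle and PM means were 0.312 and 2.30 CPM in the B gate, 47.3 and 80.4 in the NK gate and 0.0812 and 0.282 in the neutrophil gate. In the monocyte and macrophage gate they were 0.727 and 2.31 CPM, and in cells with a lower CD3 count 5.59 and 15.0 CPM. In the plasma gate they were 44.4 and 34.4 CPM, with overlapping groups. The order did not hold in the basophil gate either, with 0 Cd28 UMIs in vehicle and 1 in PM mice. The B gate rested on 2 and 16 Cd28 UMIs and the neutrophil gate on 6 and 22, and Cd28 did not pass the filter on low counts in either. The change in the NK gate did not pass the test (log2 0.78, edgeR adjusted p = 0.956). The share of all genes with this order was not counted. Thy1 rose in the pDC gate (6.84 and 9.47 CPM in vehicle, 110 and 118 CPM in PM mice), while Trac stayed at 0 UMIs. The 8 T cell markers, which include both, summed to 16.0 and 29.8 CPM in vehicle and 149 and 159.7 CPM in PM mice. Their part in the Cd28 difference was not tested. Groups of 2 mice are too small for a test of single samples that stand apart.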

How the results depend on the processing

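The count of members called between PM and vehicle mice was 0 in all CD3-positive, Foxp3-positive, CD8 and CD4 cells under each alternative run, and no called value changed sign. The counts of all genes called moved more. In all CD3-positive cells (8 genes) it was 37 with DESeq2, 59 without TMM factor, 345 without filter, 297 with a replicate block, 792 and 1 with CD3 of at least 1 and 3 UMIs, 24 without mixed-lineage cells, 34 with the stricter cell filter (500 genes, 10% mitochondrial counts), 132 without NK-gate cells, and 2 to 367 with 1 mouse left out. In Foxp3-positive cells (3 genes) it was 9, 6, 19 and 7 for the first 4 of these, 0 for both CD3 minima, for mixed-lineage cells left out and for at least 2 Foxp3 UMIs, and 4 to 18 with 1 mouse left out. In CD8 cells (3 genes) it was 5 without TMM factor, 84 without filter, 7 with CD3 of at least 3 UMIs, 0 without mixed-lineage or NK-gate cells, and 2 to 103 with 1 mouse left out. In CD4 cells (0 genes) it was 2 with DESeq2, 8 without filter, 6 without mixed-lineage cells and 8 to 27 with 1 mouse left out. Between Foxp3-positive and CD4 cells, 2 members became 4 without filter and 1 with CD3 of at least 3 or Foxp3 of at least 2 UMIs, and 0 to 4 with 1 mouse left out, while 21 genes became 58 without filter and 12 with the Foxp3 minimum, and 9 to 18 with 1 mouse left out. Between CD8 and CD4 cells, 4 members became 1 to 4 with 1 mouse left out, and 105 genes became 53 without TMM factor, 231 without filter and 9 to 115 with 1 mouse left out. The cause of these moves was not tested. Replicate numbers say nothing on shared handling. With the replicate block Tnfrsf9 in all CD3-positive cells stood at log2 -0.89 (edgeR adjusted p = 0.129). Depth limits the Foxp3-positive and CD4 sums most, at 23650 and 27535 UMIs in vehicle mouse 1.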
